A study of Mus musculus with 6 samples.

Results

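Short interspersed elements (SINEs) are the 32 rows of the repeat table whose names begin with B1, PB1, B2, B3, B4, RSINE, MIR or ID followed by a digit or a low line, out of 18538 rows in all. RNA was sequenced from the vermis, which is the middle strip of the cerebellum, of mice 8 weeks of age. Of these, 3 were LINE-1a mice, whose LINE-1 (L1) retrotransposons the study describes as activated, and 3 were dCas mice, its controls. The labels give the strain names LINE-1a and dCas and no further allele; the sources used here do not state the transgenes, the cells that express them or any agent that both strains received. Each mouse gave 1 library. All 32 rows had a mean of at least 10 normalized counts and entered the test, as did 989 repeat rows in all. They comprised 15 B1 and PB1 rows, 3 B2 rows, 5 rows of B3, B4 and RSINE1, 4 ID rows and 5 MIR rows.

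SINEs are short repeats that code for no protein and are copied into new sites by the enzymes of longer elements, L1 for the rodent families and L2 for MIR. Free SINE transcripts are made by RNA polymerase III (Pol III) from a promoter inside the element, built of an A box and a B box. But many SINE copies lie in introns and untranslated ends of ordinary genes and are read through by RNA polymerase II as part of those transcripts. B1 descends from 7SL RNA, the scaffold of the signal recognition particle; B2 and MIR descend from transfer RNAs; ID elements are close to BC1, a small RNA of neuronal dendrites that is itself derived from alanine transfer RNA; and B4 joins an ID-like part to a B1-like part. MIR copies are shared among mammals and are far older than B1 and B2, whose youngest subfamilies are still able to move in mice.

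The RNA below is shown because ID elements are close to it and because it carries the internal promoter described above. The mouse BC1 gene, Bc1, is annotated by GENCODE as a long non-coding RNA at chr7:144914470-144914637 (GRCm38, plus strand). Its RNA is 168 bases long. The capitals mark a part of the A box (CAGTGG, bases 19 to 24) and a part of the B box (GGTTCG, bases 57 to 62), which do not overlap and were searched on both strands. Of 32851 RefSeq promoter windows of 300 bases (GRCm38.p6), 20.8% held CAGTGG, 4.72% GGTTCG and 0.953% both.
Bc1: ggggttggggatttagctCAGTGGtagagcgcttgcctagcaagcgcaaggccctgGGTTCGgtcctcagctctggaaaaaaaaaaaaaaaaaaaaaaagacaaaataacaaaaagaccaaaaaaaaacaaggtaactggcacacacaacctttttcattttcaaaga

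Values are normalized counts, reads divided by 1 size factor per library, unless another scale is named. The repeat table held 420424 to 603366 reads per library, of which 32106 to 48102 were SINE reads, and the gene table held between 23483158 and 33445789. The L1 and Lx rows, the check of the labels, summed to 125026, 103013 and 103092 in LINE-1a libraries and 113581, 122537 and 128533 in dCas libraries. Their mean sum was lower in LINE-1a vermis, at 0.91 of the dCas mean, and the groups overlapped. Of the 112 L1 and Lx rows tested, 89 had a log2 fold change above 0 (median 0.38) and 0 passed in limma. At an unadjusted p under 0.05 in limma, 54 of these rows were higher and 1 lower. The sum and most rows thus pointed in opposite directions. Several features of the libraries moved with the groups or stood apart. By the Y-linked genes Ddx3y, Uty, Kdm5d and Eif2s3y, which summed to 3.23 in LINE-1a 1, 6.45 in LINE-1a 2, 5249 in LINE-1a 3 and 4155 to 4936 in dCas libraries, the first pair came from females and the rest from males. The murine leukemia virus rows (MuLV-int, RLTR4_MM-int and RLTR4_Mm) held 6.10% of the repeat table in LINE-1a 2, 16.1% to 18.7% in the other LINE-1a libraries and 18.9% to 33.5% in the dCas libraries. All 7 cerebellar markers were present in every library, and 6 of them overlapped between the groups. The exception was Cbln3, a granule cell gene, at 30157, 16064 and 22306 in LINE-1a and 30968, 41767 and 45001 in dCas libraries (log2 fold change -0.81, limma adjusted p = 0.325), and its part in the SINE values was not tested. The 8 choroid plexus markers, from the tissue next to the vermis, summed to 1992, 36161 and 107740 in the LINE-1a libraries and to 85924, 1598 and 1482 in the dCas libraries, with none at 0. The groups overlapped in these sums, whose part in the SINE values was not tested.

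SINE RNA as a whole was slightly higher in LINE-1a vermis on the scale of the repeat table, and no single family passed the test. The 32 rows summed to 28441, 29639 and 30538 normalized counts in LINE-1a libraries 1 to 3, against 27382, 26711 and 26935 in dCas libraries 1 to 3. All 3 LINE-1a sums lay above all 3 dCas sums, and the means differed 1.09-fold (29539 ± 1052 in LINE-1a and 27009 ± 342 in dCas vermis, SD, n = 3 each). Of the 32 rows, 28 had a log2 fold change above 0 (87.5%), where 56% of all tested repeats did. Their median log2 fold change was 0.13, and that of all 989 tested repeats was 0.05. In bulk tissue a change in the share of a cell type and a change in RNA per cell cannot be told apart.

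In limma, fitted over the 989 repeats with Benjamini-Hochberg adjustment, 0 SINE rows passed an adjusted p of 0.05, as did 0% of all repeats. The smallest adjusted p was 0.305. At an unadjusted p under 0.05, 0 SINE rows were higher and 0 lower, against 9.4% and 5.46% of all repeats. When run on whole reads, edgeR and DESeq2 called 0 SINE rows as well, with 0 at an unadjusted p under 0.05 in each. The log2 fold changes ran from -0.27 for B1F2 to 0.28 for B4A, and their 95% intervals reached from -0.61 to 0.65, so changes beyond 1.57-fold up or 0.654-fold down lay outside the interval of every row. The groups did not overlap for 12 of the 32 rows (37.5%), each of them higher in LINE-1a vermis, where 13.8% of all tested repeats were higher and 5.46% lower without overlap. This was not particular to SINEs, since 35 of the 112 tested L1 and Lx rows were higher without overlap and 0 lower.

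**Figure D1:**
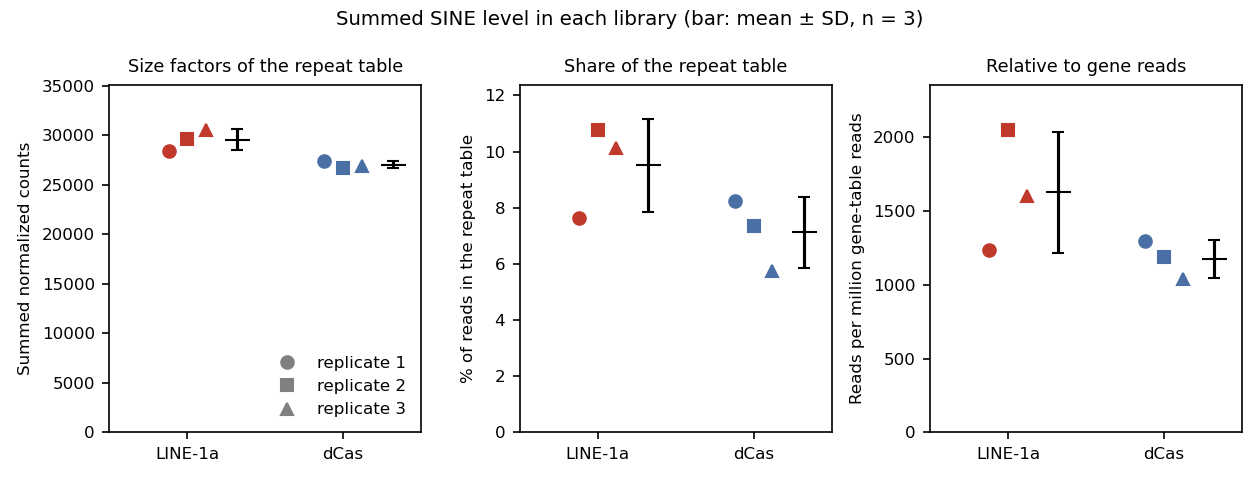
Summed level of the 32 SINE rows in each LINE-1a and dCas library, as normalized counts of the repeat table (left), as a percentage of the reads of the repeat table (middle) and as reads per 1000000 gene-table reads (right). Symbols are replicates and bars the mean ± SD of 3 libraries; all LINE-1a libraries lie above all dCas libraries only in the left panel, and LINE-1a 1 lies within the dCas range in the other panels.

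How far the groups stood apart depended on what SINE reads were measured against. As a share of the reads of the repeat table, SINEs took 7.64% of LINE-1a 1 (95% Wilson interval 7.56 to 7.72), 10.8% of LINE-1a 2 (10.7 to 10.9) and 10.1% of LINE-1a 3 (10.03 to 10.2). The dCas shares were 8.23% (8.15 to 8.31), 7.37% (7.29 to 7.44) and 5.76% (5.70 to 5.82). These intervals cover counting error only. LINE-1a 1 lay below dCas 1 on this scale, so the groups overlapped.

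Against the reads of the gene table, SINEs gave 1232, 2048 and 1600 reads per 1000000 in LINE-1a libraries 1 to 3, and 1296, 1185 and 1040 in dCas libraries 1 to 3. LINE-1a 1 again lay within the dCas range and LINE-1a 2 was highest. With the size factors of the gene table in place of those of the repeat table, 31 of 32 SINE rows had a log2 fold change above 0, with a median of 0.33, but 74% of all 999 repeats then tested did so too, and their median moved to 0.25. Set against the median of all repeats, 27 of 32 SINE rows lay above it with either set of size factors. New size factors shift every row of a library alike, so this count could hardly differ and is no second result. Limma called 0 SINE rows and 0% of repeats on this scale. At an unadjusted p under 0.05, 3 SINE rows and 15% of repeats were higher. Without overlap, 4 SINE rows and 10.1% of repeats were higher.

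**Figure D2:**
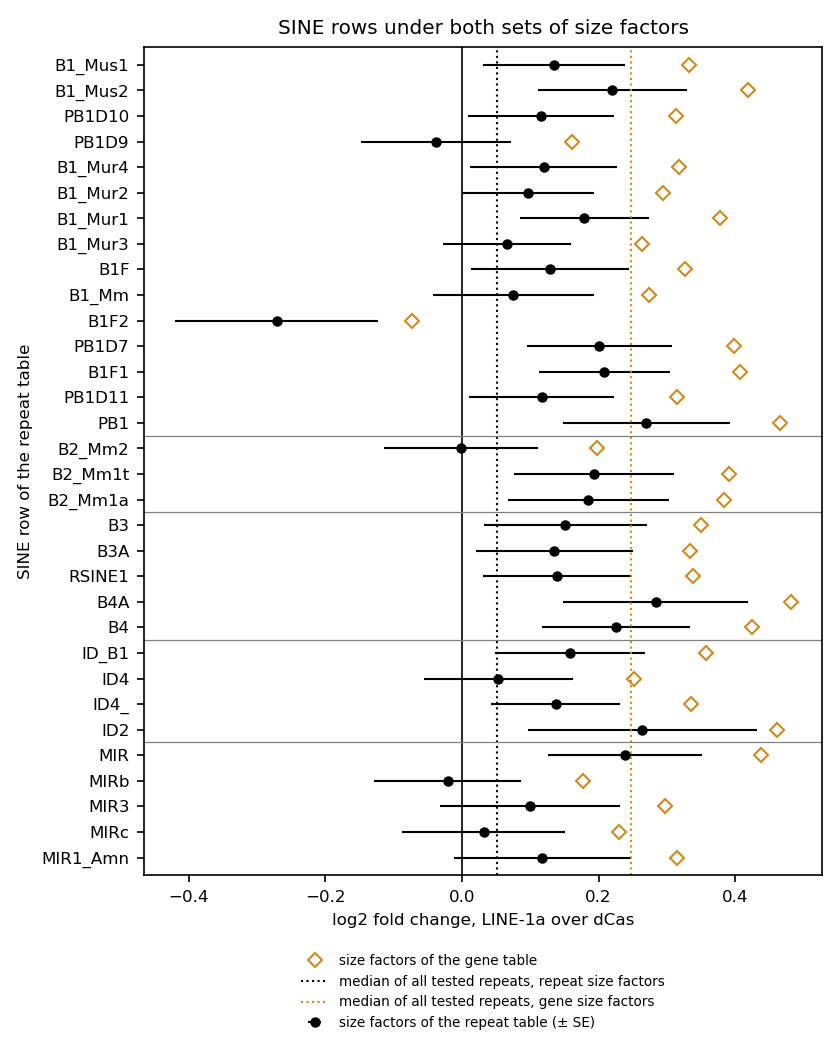
Log2 fold change of each SINE row, LINE-1a over dCas, with the size factors of the repeat table (black, ± SE) and of the gene table (orange diamonds); dotted lines are the medians of all tested repeats on the same 2 scales, 0.05 and 0.25. Rows are grouped, from the top, as B1 and PB1, B2, B3 with B4 and RSINE1, ID, and MIR. On either scale 27 of 32 rows lie right of the dotted line of their own colour. Size factors shift all rows nearly alike, so the 2 scales are not independent here.

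The B1 rows, descendants of 7SL RNA, summed to 10366, 10793 and 10962 normalized counts in LINE-1a libraries 1 to 3, against 9949, 9773 and 10139 in dCas libraries 1 to 3. The groups did not overlap, and the means differed 1.08-fold. Of the 15 rows 13 had a log2 fold change above 0 and 6 did not overlap between the groups, with a median of 0.12. B1_Mus1, a young B1 subfamily, was 1595, 1693 and 1704 in LINE-1a and 1533, 1506 and 1508 in dCas libraries (log2 fold change 0.13 ± 0.10, SE). Its dCas values lay within a narrow band below all LINE-1a values. B1_Mus2 was 1044, 1197 and 1138 in LINE-1a and 1012, 982 and 904 in dCas libraries (0.22 ± 0.11), also without overlap. B1_Mm, another young subfamily, did overlap, at 610.3, 750 and 734 in LINE-1a and 689, 678 and 616 in dCas libraries. LINE-1a 1 was the lowest library of all for B1_Mm.

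Among the B1_Mur subfamilies, B1_Mur1 was 741, 797 and 786 in LINE-1a and 683, 684 and 684 in dCas libraries (log2 fold change 0.18 ± 0.09). The dCas libraries were nearly equal and lay below every LINE-1a library. B1_Mur2, B1_Mur3 and B1_Mur4 overlapped between the groups, with log2 fold changes of 0.10, 0.07 and 0.12. Between libraries B1_Mur4 ran from 786 to 933 in LINE-1a vermis and from 761 to 816 in dCas vermis.

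The older PB1 and B1F rows included both the smallest p-value of the SINEs and their lowest fold change. PB1, a proto-B1 row with only 94 to 145 reads per library, was 87.7, 89.3 and 98.8 in LINE-1a and 80.3, 71.3 and 76.7 in dCas libraries. The groups did not overlap (log2 fold change 0.27 ± 0.12, unadjusted p = 0.0576, limma adjusted p = 0.305). B1F1 was 339, 336 and 342 in LINE-1a and 313, 280 and 288 in dCas libraries, without overlap and with little spread in LINE-1a vermis (log2 fold change 0.21 ± 0.10).

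B1F2 went the other way from B1F1, at 437, 324 and 384 in LINE-1a and 411, 434 and 537 in dCas libraries (log2 fold change -0.27 ± 0.15, limma adjusted p = 0.327). The groups overlapped, and the lowest value was that of LINE-1a 2 and the highest that of dCas 3. Without LINE-1a 2 the log2 fold change was -0.16, and with every library scaled to the same total it turned to 0.016. The ratio of B1F1 to B1F2, in which size factors cancel, was 0.777, 1.04 and 0.891 in LINE-1a and 0.761, 0.645 and 0.537 in dCas libraries. It was higher in every LINE-1a library than in any dCas library, although LINE-1a 1 and dCas 1 differed by little. B1F was 694, 707 and 749 in LINE-1a and 613, 613 and 749 in dCas libraries. dCas 3 matched the highest LINE-1a library there.

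PB1D7, PB1D9, PB1D10 and PB1D11, further rows of the PB1D series, differed among themselves. PB1D7 was 323, 348 and 376 in LINE-1a and 302, 285 and 323 in dCas libraries, with no overlap by a margin of less than 1 between LINE-1a 1 and dCas 3 (log2 fold change 0.20). PB1D9 was 957, 803 and 905 in LINE-1a and 887, 890 and 953 in dCas libraries (log2 fold change -0.04), with LINE-1a 1 highest and LINE-1a 2 lowest. PB1D10 was 971, 973 and 967 in LINE-1a libraries, which lay close together, and 871, 835 and 988 in dCas libraries (log2 fold change 0.12). PB1D11 had a log2 fold change of 0.12 as well.

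**Figure D3:**
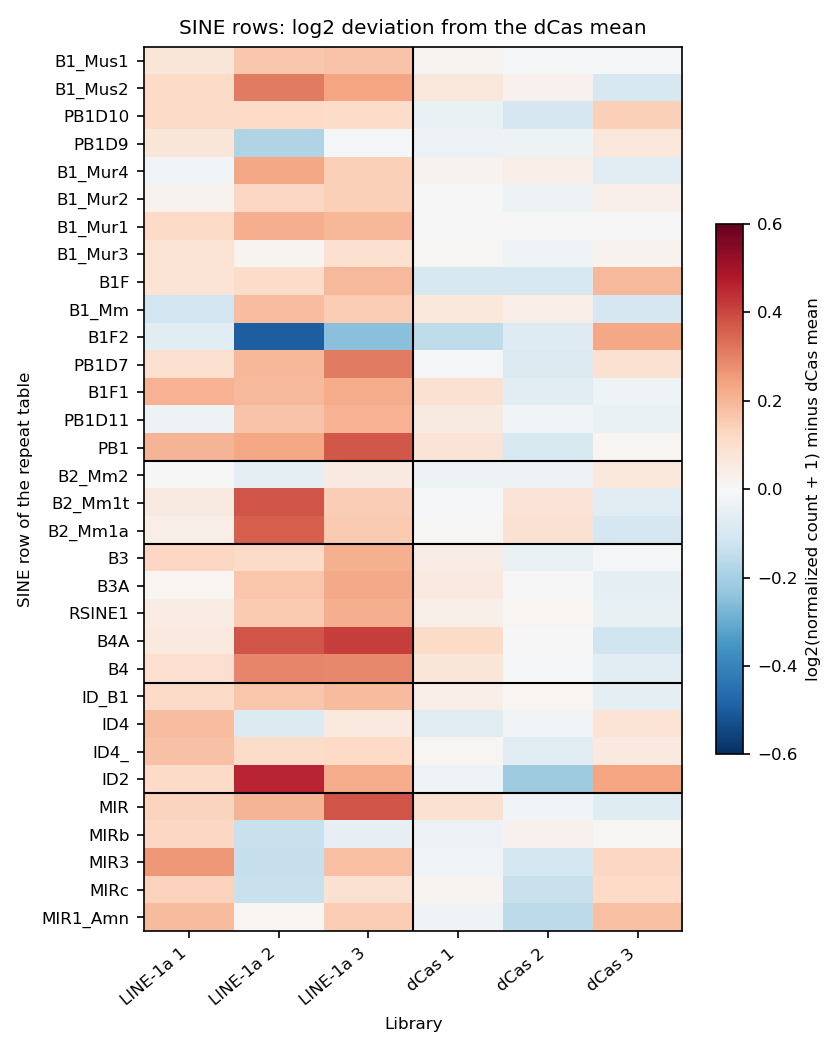
Log2 deviation of each SINE row from its dCas mean in every library, LINE-1a libraries left of the black line and dCas libraries right of it. Red is higher and blue lower than the dCas mean; LINE-1a 2 holds the most extreme values in both directions, with B1F2 lowest and ID2 highest in that library.

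B2 elements arose from a transfer RNA, and all 3 of their rows overlapped between the groups. B2_Mm2 was 2174, 2093 and 2255 in LINE-1a and 2133, 2126 and 2270 in dCas libraries, with means of 2174 ± 81.2 in LINE-1a and 2176 ± 81.2 in dCas vermis (SD, n = 3 each). Its log2 fold change was -0.0015, with a 95% interval of -0.26 to 0.26. B2_Mm1a, among the youngest B2 copies, was 606, 755 and 656 in LINE-1a and 593, 627 and 550.0 in dCas libraries (log2 fold change 0.18 ± 0.12). LINE-1a 2 was the highest library and LINE-1a 1 lay between the dCas values.

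B2_Mm1t, the third B2 row, was 732, 916 and 781 in LINE-1a and 699, 743 and 675 in dCas libraries (0.19 ± 0.12). Without LINE-1a 2 the log2 fold changes were 0.10 for B2_Mm1t and 0.098 for B2_Mm1a. The order of the libraries was close to that of B2_Mm1a, and the ratio of B2_Mm1a to B2_Mm1t kept between 0.814 and 0.848 in all 6 libraries, less variation than counting noise gives for that many reads (chi-square per degree of freedom 0.106). A ratio as steady was also found between rows of different groups, as B3A with PB1D11 had 0.0695. Values under 1, the level of counting noise, were found for 91 of 496 pairs of SINE rows. Of the 134 pairs within a group 37 were under 1, a larger share than over all pairs. Whether similar subfamilies share reads was not tested. The ratio of B2_Mm1a to B2_Mm2 was 0.279, 0.361 and 0.291 in LINE-1a and 0.278, 0.295 and 0.242 in dCas libraries. Only LINE-1a 2 lay above the dCas range. The B2 rows together summed to 3511, 3764 and 3692 in LINE-1a and 3424, 3495 and 3495 in dCas libraries, a ratio of means of 1.05.

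The rows of B3, B4 and RSINE1 were the group with the largest ratio of summed means, 1.13. They summed to 8780, 9559 and 9977 in LINE-1a and 8693, 8264 and 8059 in dCas libraries. LINE-1a 1 lay just above dCas 1, and the other LINE-1a libraries stood further off. All 5 rows had a log2 fold change above 0 and 3 did not overlap. B3, a relative of B2, was 3131, 3111 and 3328 in LINE-1a and 2964, 2790.4 and 2861 in dCas libraries (0.15 ± 0.12). B3A was 1619, 1802 and 1879 in LINE-1a and 1672, 1607 and 1539 in dCas libraries. LINE-1a 1 lay below dCas 1 for B3A and above every dCas library for B3.

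B4A, a B4 subfamily, had the largest log2 fold change of the SINEs, 0.28 ± 0.14 (limma adjusted p = 0.308). It was 1420.0, 1769 and 1816 in LINE-1a and 1478, 1365 and 1255 in dCas libraries. LINE-1a 1 lay within the dCas range while LINE-1a 2 and LINE-1a 3 lay above it, and without LINE-1a 1 B4A passed the test (log2 fold change 0.40, limma adjusted p = 0.0453), the only SINE row to do so. In that fit 156 of 988 repeats passed. B4 was 974, 1112 and 1110.0 in LINE-1a and 955, 906 and 868 in dCas libraries, without overlap (0.23 ± 0.11). RSINE1, a row of the same family, was 1637, 1765 and 1843 in LINE-1a and 1624, 1596 and 1536 in dCas libraries (0.14 ± 0.11). The ratio of B4A to B3 was 0.454, 0.569 and 0.546 in LINE-1a and 0.498, 0.489 and 0.439 in dCas libraries. It was above the dCas range in LINE-1a 2 and LINE-1a 3 and within it in LINE-1a 1.

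ID rows, relatives of BC1, had the sums with the smallest spread between mice of the 5 groups. They summed to 2988, 2977 and 3049 in LINE-1a and 2754, 2713 and 2703 in dCas libraries, with means of 3005 ± 38.6 in LINE-1a and 2723 ± 26.9 in dCas vermis (SD, n = 3 each). All LINE-1a sums lay above all dCas sums, at a ratio of means of 1.10. ID_B1, a composite of ID and B1 sequence and so also akin to B4, was 2085, 2158 and 2195 in LINE-1a and 1974, 1941 and 1855 in dCas libraries (0.16 ± 0.11). ID_B1 made up most of the sum of the ID rows, and its own SD was wider, 56.0 in LINE-1a and 61.3 in dCas vermis. Of the other ID rows only ID4_ did not overlap between the groups, so the gap between the sums rests largely on ID_B1. ID4_ was 341, 326 and 328 in LINE-1a and 304, 287 and 314 in dCas libraries, without overlap (0.14 ± 0.09). ID4 was 500.5, 416 and 460 in LINE-1a and 421, 436 and 467 in dCas libraries (0.05 ± 0.11), with LINE-1a 2 lowest and LINE-1a 1 highest. ID2, with 64 to 126 reads per library, was 61.1, 77.6 and 65.9 in LINE-1a and 55.3, 48.5 and 66.6 in dCas libraries, an overlap set by dCas 3.

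The row named ID alone does not match the naming rule. It was 118, 115 and 111 in LINE-1a and 105, 95.5 and 101 in dCas libraries (log2 fold change 0.19 ± 0.11, limma adjusted p = 0.364), without overlap. BC1_Mm, the repeat row of BC1, was 244, 238 and 216 in LINE-1a and 189, 208 and 212 in dCas libraries (0.19 ± 0.11, limma adjusted p = 0.325). The groups did not overlap, by a narrow margin between LINE-1a 3 and dCas 3. 7SLRNA, the relative of B1, overlapped widely, at 85.9, 87.5 and 51.9 in LINE-1a and 40.2, 54.6 and 82.9 in dCas libraries. The 4.5SRNA row, another small RNA related to B1, was 93.0, 116 and 102 in LINE-1a and 111, 116 and 101 in dCas libraries (log2 fold change -0.08). Among the alanine transfer RNA rows tRNA-Ala-GCY_ passed the filter, with 18.2 to 30.8 normalized counts over all libraries and a log2 fold change of 0.27.

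MIR rows are the oldest SINEs measured here, and MIR itself was the only one of the 5 without overlap between the groups; differences among the 5 rows were not tested. MIR was 1098, 1152 and 1296 in LINE-1a and 1064, 989 and 949 in dCas libraries, without overlap (log2 fold change 0.24 ± 0.11, unadjusted p = 0.0670, limma adjusted p = 0.305). MIRb was 914, 763 and 810.0 in LINE-1a and 820, 853 and 844 in dCas libraries (-0.02 ± 0.11), so that LINE-1a vermis held both its highest and its lowest library. The ratio of MIR to MIRb was 1.20, 1.51 and 1.60 in LINE-1a and 1.30, 1.16 and 1.12 in dCas libraries. LINE-1a 2 and LINE-1a 3 lay above the dCas range and LINE-1a 1 within it.

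MIR3 was 361, 274 and 341 in LINE-1a and 298, 279.7 and 328 in dCas libraries (0.10 ± 0.13). MIRc was 304, 251 and 294 in LINE-1a and 279, 252 and 300 in dCas libraries (0.03 ± 0.12). MIR1_Amn, named for amniotes, was 119, 105 and 116 in LINE-1a and 102, 93.2 and 118 in dCas libraries (0.12 ± 0.13). In all 3 of these rows LINE-1a 2 was the lowest LINE-1a library and dCas 2 the lowest dCas library. The 5 MIR rows summed to 2795, 2545 and 2858 in LINE-1a and 2563, 2466 and 2539 in dCas libraries, so LINE-1a 2 lay between the dCas values.

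**Figure D4:**
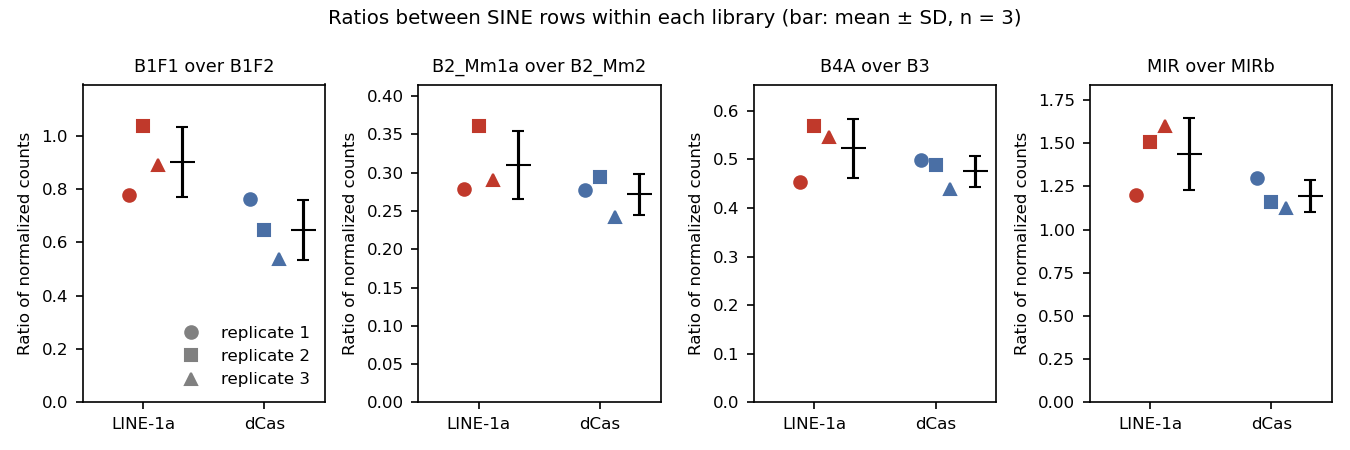
Ratio of normalized counts between pairs of SINE rows within each LINE-1a and dCas library; size factors cancel in these ratios. Symbols are replicates and bars the mean ± SD of 3 libraries. LINE-1a 1 lies within the dCas range for B2_Mm1a over B2_Mm2, B4A over B3 and MIR over MIRb, and just above it for B1F1 over B1F2; the pairs were chosen after their values were seen.

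The LINE-1a mice were not alike in their SINE profile. The median log2 deviation of the 32 rows from the dCas mean was 0.10, 0.16 and 0.17 for LINE-1a libraries 1 to 3, against 0.01, -0.02 and 0.00 in dCas libraries 1 to 3. Over all tested repeats the medians were 0.07, 0.05 and 0.04 in LINE-1a and 0.02, -0.01 and 0.00 in dCas libraries. The number of SINE rows above the highest dCas library was 19, 21 and 23 for LINE-1a libraries 1 to 3. Rows below the lowest dCas library numbered 1, 7 and 2. The rows were spread most widely in LINE-1a 2, with a standard deviation of 0.20 among their log2 deviations, against 0.08 for LINE-1a 1, 0.13 for LINE-1a 3 and 0.06 to 0.10 for the dCas libraries. LINE-1a 2 also had the fewest gene-table reads and the highest share of ribosomal RNA, 10.2% of its repeat reads, with 5.39% to 7.86% for the remaining 5. The part of these features in its SINE profile was not tested.

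LINE-1a 3 is the only male among the LINE-1a mice and can be set beside the dCas mice, which are all male. Its SINE rows had the highest median deviation of all libraries. In a fit of these 4 libraries, whose lone LINE-1a sample is assumed to vary like the dCas samples, 29 of 32 SINE rows had a log2 fold change above 0, with a median of 0.17, and 0 passed in limma. Group and sex are partly confounded, and 1 male LINE-1a library cannot separate them.

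Of 9 listed RNAs that stay in the nucleus 4 were measured, and they did not move together. Meg3, a long non-coding RNA of neuronal nuclei, was 34715, 62978 and 55263 in LINE-1a and 38967, 33560.3 and 24847 in dCas libraries. Snhg11, another neuronal non-coding RNA, was 16809, 45644 and 24813 in LINE-1a and 21589, 21338 and 11822 in dCas libraries. LINE-1a 2 was highest, LINE-1a 3 next and dCas 3 lowest for both, which is also the order of these libraries in SINE reads per 1000000 gene-table reads. Neat1 overlapped without that order, at 1943, 1463 and 2296 in LINE-1a and 3019, 1799 and 627 in dCas libraries. Peg13, which lies within Trappc9, was 13693, 3660 and 10026 in LINE-1a and 15585, 16138 and 15804 in dCas libraries (log2 fold change -0.99), without overlap and with LINE-1a 2 lowest, the reverse of Meg3 and Snhg11. None of the 4 passed (smallest adjusted p = 0.325 in limma), and their part in the SINE values was not tested.

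The machinery that transcribes SINEs was read from the gene table, where limma called 0.146% of 15800 features at an adjusted p of 0.05. Of 25 genes for Pol III and its initiation factors, 0 passed, with 17 log2 fold changes below 0 and 8 above, a median of -0.21, and a smallest adjusted p of 0.325. With the lists of 16 and 16 genes described next, 0 of 57 passed in limma, edgeR or DESeq2, and at an unadjusted p under 0.05 the counts higher and lower were 3 and 8 in limma, 3 and 5 in edgeR and 2 and 8 in DESeq2. Of all features tested there, 52.9% were above 0 and the median was 0.03. At an unadjusted p under 0.05, 5 of the 25 genes were lower and 1 higher, against 7.35% and 7.94% of all features. Without overlap 8 were lower and 0 higher, against 12.3% and 9.88% of all features.

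Polr3a, the largest catalytic subunit of Pol III, was 966, 640.4 and 926 in LINE-1a and 1120, 1104 and 1020.4 in dCas libraries, without overlap (log2 fold change -0.38 ± 0.18, limma adjusted p = 0.330). Gtf3c1, the subunit of factor TFIIIC that reads the B box, was 1833, 960 and 1711 in LINE-1a and 1980, 2234 and 2579 in dCas libraries (-0.64 ± 0.24). Gtf3c3 was 776, 611 and 694 in LINE-1a and 912, 899 and 888 in dCas libraries (-0.38 ± 0.14). LINE-1a 2 was the lowest library for each of these genes.

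Gtf3c6, also of TFIIIC, was 1314, 817 and 950 in LINE-1a and 1441, 1398 and 1354 in dCas libraries (-0.47 ± 0.18). Brf2, an initiation factor of other Pol III promoters, had a log2 fold change of -0.42 without overlap, and overlaps Adgra2 on the opposite strand. No source used here says whether reads were counted by strand, so its level is uncertain. Bdp1, of factor TFIIIB, went the other way, at 956, 1324 and 1071 in LINE-1a and 993, 845 and 623 in dCas libraries (0.46 ± 0.20). Maf1, the repressor of Pol III, was 397, 371 and 348 in LINE-1a and 282, 364 and 384 in dCas libraries. The groups overlapped in part, with LINE-1a 1 above and dCas 1 below all the others.

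**Figure D5:**
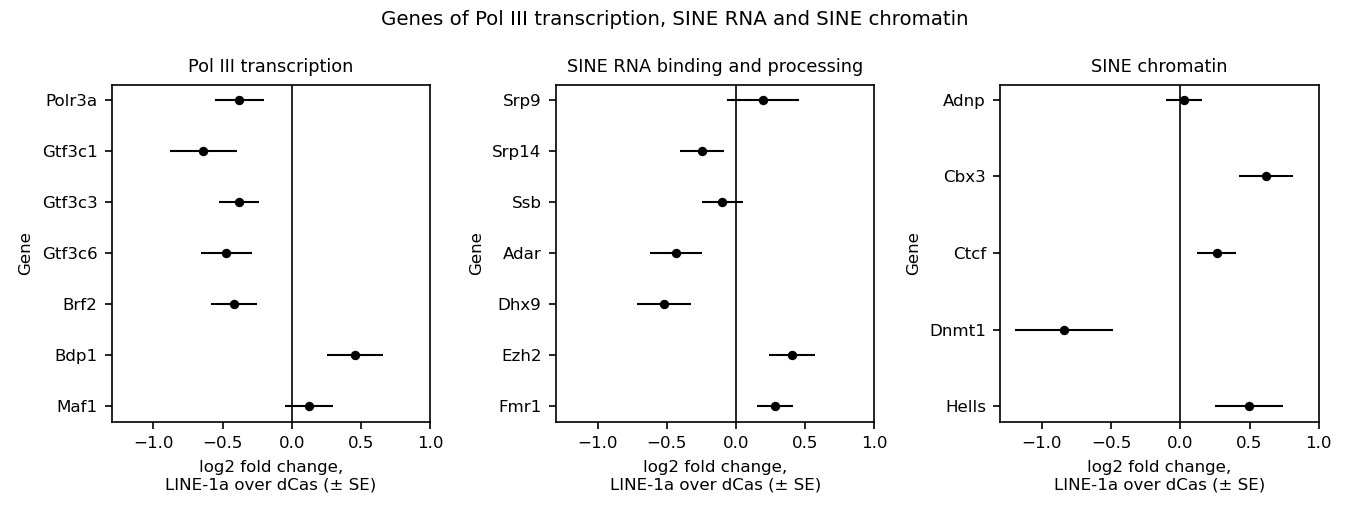
Log2 fold change (± SE), LINE-1a over dCas, of the genes named in the text, for Pol III and its factors (left), for proteins that bind or process SINE RNA (middle) and for chromatin factors that act on SINEs (right). Of the Pol III genes drawn, Bdp1 and Maf1 lie above 0 and the others below; no gene shown passed an adjusted p of 0.05.

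Of 16 genes whose proteins bind or process SINE RNA 0 passed, with 9 log2 fold changes above 0 and 7 below. Srp9 and Srp14 form the pair that binds 7SL and B1 RNA. Srp9 was 451, 782 and 456 in LINE-1a and 351, 566 and 537 in dCas libraries, and Srp14 was 2910, 3056 and 2296 in LINE-1a and 3158, 3469 and 3104 in dCas libraries. Srp9 overlapped and Srp14 lay lower without overlap (-0.25 ± 0.16). Ssb, the La protein that holds the ends of new Pol III transcripts, had a log2 fold change of -0.10.

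Dhx9, a helicase that binds structured repeat RNA, was 1348, 790 and 1112 in LINE-1a and 1612, 1476 and 1473 in dCas libraries (-0.52 ± 0.19). Adar, which edits double-stranded RNA, was 2798, 1792 and 2686 in LINE-1a and 3352, 2994 and 3304 in dCas libraries (-0.43 ± 0.19), and overlaps Chrnb2 on the opposite strand. Ezh2, a histone methyltransferase reported to cut B2 RNA, was 522, 617 and 532 in LINE-1a and 494, 386 and 389 in dCas libraries (0.40 ± 0.16). Fmr1, an RNA-binding protein reported to bind BC1, was 1111, 1059 and 1043 in LINE-1a and 936, 851 and 861 in dCas libraries (0.28 ± 0.13). These 4 genes were named because they had the smallest p of their list, between 0.0242 and 0.0600 unadjusted in limma. None overlapped between the groups, which such a choice favours. Of all 16 genes, 4 were higher and 5 lower without overlap, against 9.88% and 12.3% of all features.

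Among 16 chromatin genes 0 passed, with 10 log2 fold changes above 0 and 6 below. Without overlap 4 were higher and 2 lower, against 9.88% and 12.3% of all features. Adnp, whose complex with Chd4 and HP1 proteins keeps the factor Ctcf off B2 copies in mouse cells, was 1100.5, 1003 and 1010.3 in LINE-1a and 1064, 1039 and 957 in dCas libraries (0.03 ± 0.13). Ctcf was 1218, 1508 and 1289 in LINE-1a and 1144, 1134 and 1058 in dCas libraries, without overlap (0.26 ± 0.14). Cbx3, an HP1 protein, was 242, 322 and 302 in LINE-1a and 209, 197 and 157 in dCas libraries (0.62 ± 0.20, unadjusted p = 0.0108, limma adjusted p = 0.325), also without overlap. Annotated genes on the opposite strand also overlap Ctcf (Agrp), Ssb (Mettl5), Ezh2 (Gm26625 and Gm44282), Meg3 (Gm26906), Srp9 (Gm17968) and Fmr1 (Gm22435), whose levels carry the same limit. Ctcf and Cbx3 were lowest in LINE-1a 1 and highest in LINE-1a 2 among the LINE-1a libraries.

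Dnmt1, the maintenance DNA methyltransferase, was 2374, 755 and 1950 in LINE-1a and 2624, 2650.3 and 2880 in dCas libraries (-0.84 ± 0.36). Its low mean in LINE-1a vermis was mostly that of LINE-1a 2. Hells, a chromatin remodeller needed for methylation of repeats, was 50.9, 63.7 and 60.4 in LINE-1a and 41.6, 45.6 and 36.0 in dCas libraries (0.50 ± 0.24). All LINE-1a values of Hells lay above all dCas values, with a limma adjusted p of 0.339.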

How the data were processed

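Per the labels' protocols, vermis RNA of 3 LINE-1a and 3 dCas mice came from an RNeasy Fibrous Tissue kit extraction, and libraries from the NEBNext Ultra II RNA kit. The labels do not say whether the mice came from separate litters, and each p-value reflects only how these 6 animals vary, which may be partly technical. The authors deposited normalized counts, a signal of reads divided by 1 size factor per library, for genes (21927 rows) and for repeats named by RepEnrich (18538 rows, 14257 of them all 0). Tools listed in the submitters' processing notes, with no role given, are DESeq2, SAMtools 1.9, bedtools 2.27.1, Bowtie2 2.2.9 and STAR 2.5.3a; the builds listed are GRCm38 and mm10. The sources used here do not state the use of strand, any selection of RNA, or how reads matching several subfamilies were treated.

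Dividing each column by its smallest step recovered whole reads for 100% of values in both tables (within 0.001 reads). Replicates differed beyond sampling noise (chi-square per degree of freedom 2.05 to 15.8 between libraries of 1 group). Differences were tested, two-sided, by limma-trend 3.58.1 (R 4.3.3) after adding a pseudocount of 1 and taking log2, the scale of all fold changes. Features averaging 10 or more entered, p-values were adjusted by Benjamini-Hochberg over the whole table, and 0.05 was the threshold. edgeR 4.0.16 (quasi-likelihood, TMM) and DESeq2 1.42.0 on the reads were alternatives. The limma test was run on simulated data with known changes first, and edgeR and DESeq2 were not. Of simulated 1.5-fold changes it recovered 23.2% in the repeat table and 3.33% in the gene table. Of 2-fold changes it recovered 66.7% and 46.9%, so small changes could be missed.

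The SINE rows and gene lists were chosen with earlier results of these data known. The rule for named items took the 12 SINE rows of highest mean, the 3 of smallest p in each direction, the 4 genes of smallest p per list and 8 fixed genes; the other SINE rows and Bdp1 were added after their values were seen, and some items that the rule takes are not reported here. Sums and ratios over rows got no test. Lists of red cell, forebrain and brainstem markers were also read: the red cell markers summed to 7676, 5073 and 6102 in LINE-1a and 8828, 5276 and 7352 in dCas libraries, the forebrain markers to 195 to 289 in LINE-1a and 241 to 383 in dCas libraries, and the brainstem markers, nearly all Slc6a5, to 716 to 979 in LINE-1a and 1105 to 1428 in dCas libraries. The ERV loci were not used.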

Additional observations from a re-analysis of the deposited data

How the results depend on the processing

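No SINE row passed under any of the pseudocount, filter, scaling, block, tool or male-only alternatives; leaving out 1 library gave 0 to 1 (B4A, without LINE-1a 1, log2 fold change 0.22 to 0.40 over these fits). Over all repeats the calls were 0 to 156 with 1 library left out, 1 with equal totals, 1 with edgeR, 3 with DESeq2 and 6 in the male libraries. Between 26 and 32 of the 32 SINE rows lay above 0 in every alternative. The summed SINE level had a log2 ratio of 0.13, which became 0.42 with equal totals or as a share of the repeat table, 0.34 with the size factors of the genes and 0.23 without the murine leukemia virus rows, an alternative added after the data were seen; leaving out 1 library gave 0.10 to 0.16. Equal totals moved the median of all repeats to 0.34 and that of the SINE rows to 0.42.

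Some rows changed sign, most of them near 0 and B1F2 from -0.27. With equal totals MIRb was at 0.27, PB1D9 at 0.25, B2_Mm2 at 0.29, B1F2 at 0.016 and Ssb at 0.020. With the size factors of the genes MIRb was at 0.18, PB1D9 at 0.16 and B2_Mm2 at 0.20. Without the murine leukemia virus rows MIRb was at 0.072, PB1D9 at 0.054 and B2_Mm2 at 0.091. With edgeR ID4 was at -0.0058 and MIRc at -0.029, and with DESeq2 MIRc was at -0.021. In the male libraries B2_Mm2 was at 0.052, Srp9 at -0.057 and Adnp at -0.012. With 1 library left out the ranges were -0.011 to 0.12 for ID4, -0.093 to 0.037 for MIRb, -0.035 to 0.11 for MIRc, -0.094 to 0.033 for PB1D9, -0.028 to 0.029 for B2_Mm2, -0.066 to 0.33 for Srp9, -0.020 to 0.056 for Adnp and -0.0083 to 0.21 for Maf1. The cause was not tested.

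Replicate numbers did not pair the mice (correlations of -0.36, 0.13 and -0.08 between same-numbered libraries), and with the replicate block 0 SINE rows, 0 repeats and 0 listed genes passed. Depth was lowest for ID2 and PB1, with 64 to 126 and 94 to 145 reads per library.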
